A study of Rattus norvegicus with 48 samples.

Results

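The arrays described here measured RNA of rat liver nodules that their titles call negative for keratin 19 (KRT-19), set apart by how much Krt19 RNA they nevertheless held. Of 10 such arrays, number 3 was left out because its Gstp1 level, 9.25 on the log2 scale, was close to the 6.93 to 8.23 of control liver, while the other 9 lay between 13.72 and 15.18. The 9 were ranked by the Krt19 probe in the deposited normalised table, and the 4 highest (numbers 9, 2, 4 and 5) were set against the 4 lowest (numbers 10, 6, 8 and 1), with number 7, the middle of the ranking, left out. The 8 compared arrays belong to a series of 48 from male Fischer rats. It holds 8 control livers, 10 KRT-19-negative and 10 KRT-19-positive preneoplastic nodules, and KRT-19-positive nodules given the thyroid hormone triiodothyronine (T3) for 2 d or 4 d, with 10 arrays at each time. The labels do not give the way the nodules were induced, the age of the rats or the dose of T3. They do not say whether samples came from separate animals, and p-values therefore speak of the spread among these arrays alone, part of which may be technical. Because the arrays were chosen by their measured Krt19 and Gstp1 levels, every difference between the high and low sides is given as a description without a test. Tests asked only about KRT-19-positive, T3-treated and control arrays, which the split did not use, and about ranges of title numbers. For the group comparisons the spread was nevertheless estimated over all 48 arrays, the KRT-19-negative ones included.

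Keratin 19 is an intermediate filament protein of simple epithelia. In adult liver it is made by bile duct cells and by the progenitor cells that appear after injury, whereas normal hepatocytes build their filaments from keratins 8 and 18. Preneoplastic nodules are clones of altered hepatocytes, recognised in the rat by the placental glutathione transferase encoded by Gstp1, and those that stain for keratin 19 are known to be the more likely ones to progress to hepatocellular carcinoma.

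The label was set beside the RNA first. On the deposited scale, the base 2 logarithm of a normalised intensity, Krt19 was 10.23, 10.13, 10.04 and 9.75 on the 4 high arrays and 8.84, 8.12, 7.47 and 7.45 on the 4 low arrays. The array just inside the high side was number 5 at 9.75, the middle array lay at 9.01, and the array just inside the low side was number 10 at 8.84. KRT-19-positive nodules lay between 11.11 and 12.75, above every KRT-19-negative array, and control liver lay between 7.31 and 8.47. The low arrays thus reached into the control range, with only number 10 above it, and the high arrays fell between control and KRT-19-positive nodules without overlap with either. The Krt19 probe was detected above background on all 10 KRT-19-negative arrays, so negative here describes the label and not an absence of the RNA.

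All further levels are log2 intensities after background correction, on which a difference of 1 is a 2-fold difference. The order of the arrays by Krt19 was the same on this scale, with 9.88 ± 0.23 (SD, n = 4) in the high and 7.00 ± 1.15 (n = 4) in the low arrays. Between 8380 and 9895 probes were detected on the low arrays and between 9137 and 10417 on the high arrays. In tissue RNA of this kind, fewer cells of a type and less RNA per cell cannot be told apart.

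Of 11558 features, 125 (1.08%) were at least 2-fold higher and 20 (0.173%) at least 2-fold lower in the high Krt19 arrays. Levels of the 4 high arrays all lay above those of the 4 low arrays for 280 features (2.42%) and all below for 328 (2.84%). The features at least 2-fold apart were thus mostly higher, while those that did not overlap were divided nearly evenly. These counts depend on the choice of arrays and scale. On the deposited scale, whose normalisation method is not given, 36 and 5 features were 2-fold apart. With the range of title numbers as a block 210 and 40 were. Without number 9 the features at least 2-fold lower numbered 44, and without number 1 they numbered 31.

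The genes furthest above in the high arrays included transporters, proteases, matrix proteins and enzymes. Abcb1b, which encodes the multidrug exporter P-glycoprotein, read 11.35, 10.03, 10.05 and 10.20 on high arrays 9, 2, 4 and 5 and 9.35, 7.14, 6.38 and 4.77 on low arrays 10, 6, 8 and 1, the last not above background. The means differed by 3.50, from 6.91 ± 1.90 (n = 4) to 10.41 ± 0.63 (n = 4), the groups did not overlap, and number 10 stood nearest to the high side. Cyp2c12, a steroid hydroxylase that predominates in the liver of female rats, read 13.08, 13.13, 11.76 and 12.05 on the high arrays and 11.24, 10.07, 9.07 and 9.19 on the low arrays, 2.61 apart. Its low arrays lay within or above the control range of 7.94 to 10.03, and numbers 9 and 2 reached the range of KRT-19-positive nodules, 12.96 to 13.77.

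Of the secreted and lysosomal proteases, Ctse (cathepsin E, an aspartic protease) read 9.15, 8.16, 8.53 and 7.65 on high arrays 9, 2, 4 and 5 and 7.34, 5.16, 6.48 and 4.87 on low arrays 10, 6, 8 and 1. On numbers 6 and 1 it was not above background, and the means were 2.41 apart. Mmp12 (macrophage elastase) read 8.35, 9.24, 8.54 and 8.06 on the high arrays and 7.21, 6.21, 6.17 and 4.77 on the low arrays, 2.46 apart, the last value not above background. For both proteases the highest of the low arrays was number 10, whose Krt19 was also the highest on that side. Mybl1, which encodes the transcription factor A-Myb, was 8.32 ± 0.39 (n = 4) against 6.28 ± 0.55 (n = 4), and its low arrays lay between 5.79 and 6.84, inside the control range of 5.35 to 6.91.

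Tceal9, of a family related to a transcription elongation factor, read 11.30, 10.43, 9.70 and 9.27 on high arrays 9, 2, 4 and 5 against 9.26, 8.10, 7.59 and 8.07 on low arrays 10, 6, 8 and 1. The means were 1.92 apart, but numbers 5 and 10, next to the gap in the ranking, differed by almost nothing. S100a11, a calcium-binding protein, was 10.39 ± 0.68 (n = 4) against 8.63 ± 0.39 (n = 4), with the lowest high array at 9.59 and the highest low array at 9.14. Matrix and surface genes made up much of the rest. Fbln1 (fibulin 1) was 2.58 apart, Mfap4 (a microfibril-associated glycoprotein) 1.81, Msln (mesothelin, a surface protein of mesothelial cells) 1.89 and Lpl (lipoprotein lipase) 1.99. Fbln1 and Lpl were lower in the low arrays than in control liver, at 6.05 against 7.22 for Fbln1 and 7.71 against 8.11 for Lpl, so that the mean of the low arrays stood on the far side of control for both, with overlap between the arrays.

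**Figure D1:**
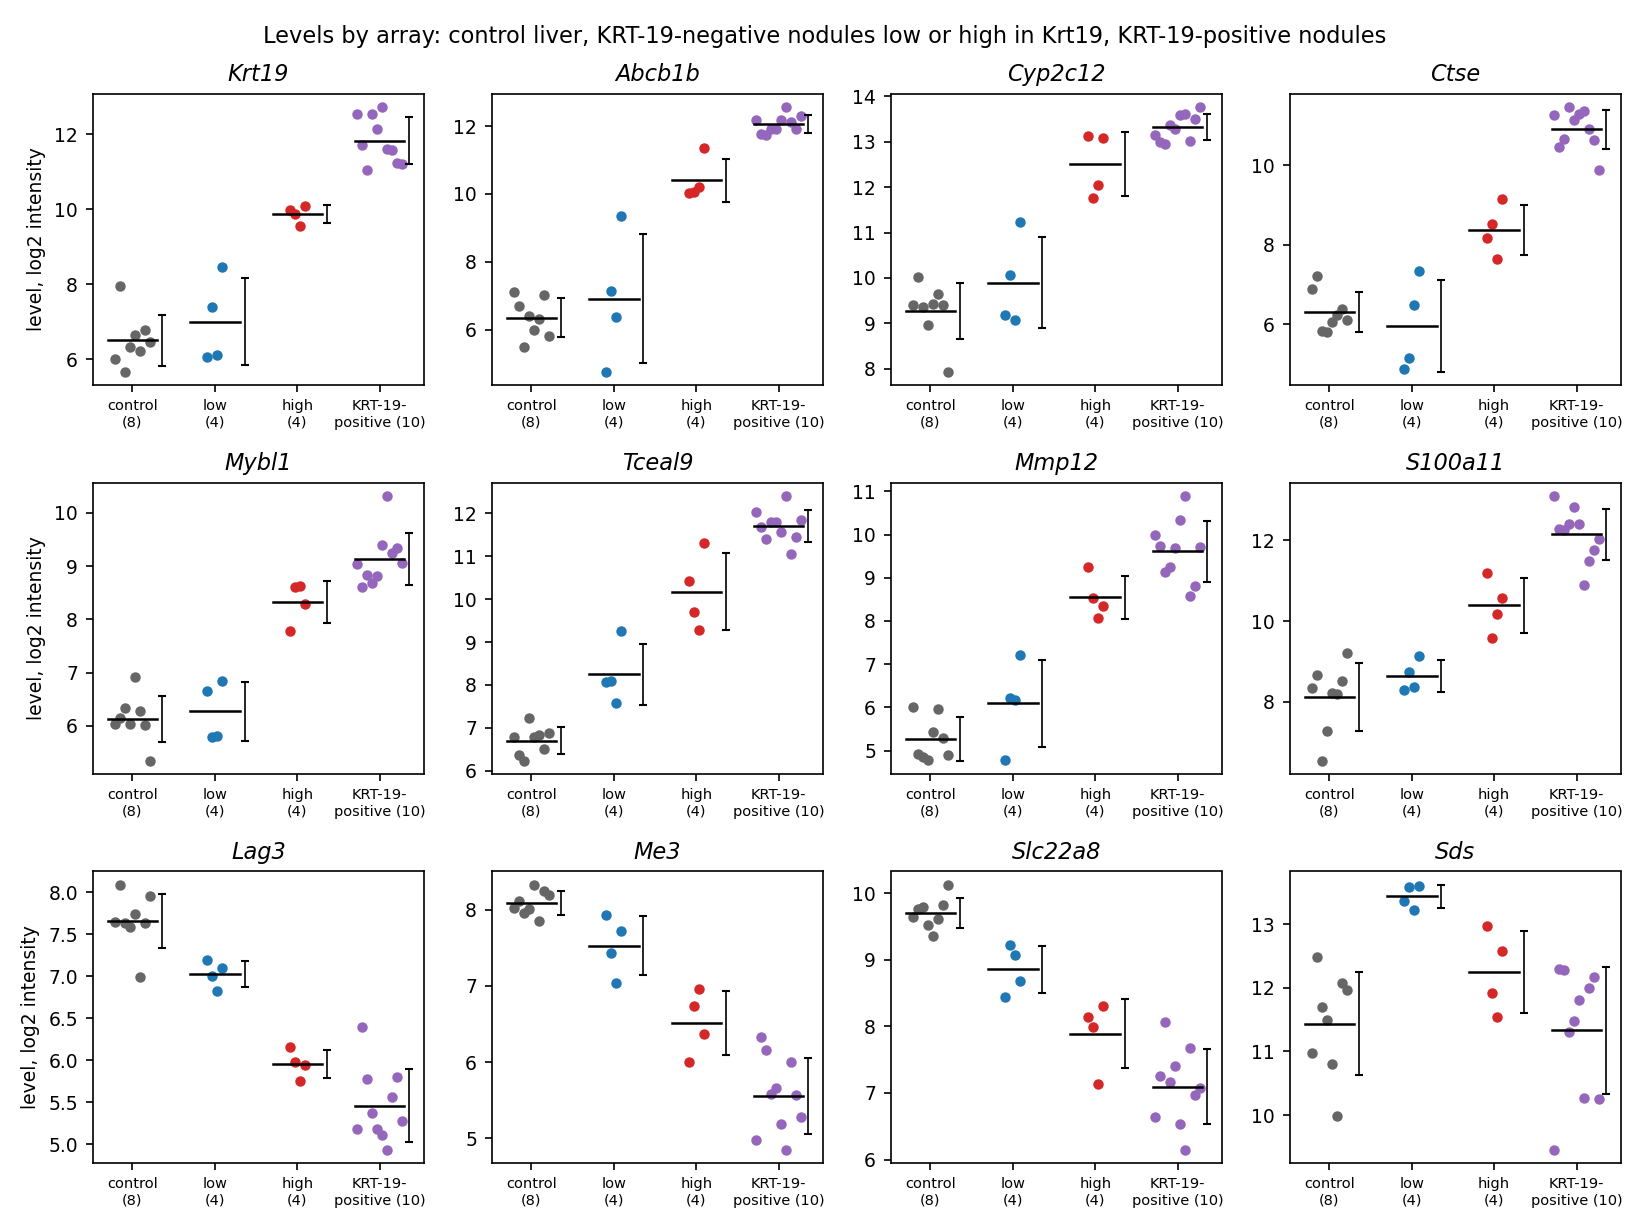
Levels of 12 genes on each array (log2 intensity, vertical axis) in control liver (8 arrays), KRT-19-negative nodules low or high in Krt19 (4 each) and KRT-19-positive nodules (10), with the mean as a line and the SD as an error bar. In the upper 8 panels the high Krt19 arrays lie above all low arrays, and in the lower 4 they lie below them. Sds differs from the other panels in that control liver and KRT-19-positive nodules have similar levels.

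Against control, 48.7% of all features differed in KRT-19-positive nodules in either direction (limma, adjusted p under 0.05), 24.8% as rises. All 11 leading genes other than Krt19 were among the rises. The estimates ranged from 1.52 ± 0.34 (SE, adjusted p = 0.000185) for Mfap4 to 5.70 ± 0.54 (adjusted p = 8.54e-13) for Abcb1b, with 8 control and 10 KRT-19-positive arrays. After 4 d of T3, 7 of the 11 were lower than in untreated KRT-19-positive nodules (26.6% of all features were), among them Ctse by -3.97 ± 0.36 (adjusted p = 2.19e-13), Tceal9 by -3.88 ± 0.33 (adjusted p = 2.69e-14) and Mybl1 by -2.74 ± 0.33 (adjusted p = 6.49e-10). The other 4 were Cyp2c12, Lpl, Msln and Mfap4, for which the T3 difference lay between -0.75 and 0.16 and did not pass the threshold, although Mfap4 passed it when only the 2 groups were fitted (adjusted p = 0.0443). Both comparisons use the same KRT-19-positive arrays, so their signs are not independent of each other.

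Promoter sequences are printed for the leading genes of which RefSeq lists one, since these genes were higher together in the high arrays. Of the 12 leading genes, 6 were in the table, and for 3 of them the 250 bases before the listed start lay outside the gene model. Epcam is added as the surface marker described further on. The bases run 5′ to 3′ on the gene's strand up to the last base before the start, on rat build GRCr8, and capitals mark matches on either strand to the AP-1 motif TGANTCA, the antioxidant response core TGACNNNGC, the GC box GGGCGG or the TATA box TATAAA. The first 2 motifs share their opening letters, so a stretch can match both. The windows are chr8:12866402-12866651 (plus strand) for Mmp12, chrX:104037024-104037273 (plus) for Tceal9, chr2:181874882-181875131 (plus) for S100a11 and chr6:12649679-12649928 (minus) for Epcam.
Mmp12: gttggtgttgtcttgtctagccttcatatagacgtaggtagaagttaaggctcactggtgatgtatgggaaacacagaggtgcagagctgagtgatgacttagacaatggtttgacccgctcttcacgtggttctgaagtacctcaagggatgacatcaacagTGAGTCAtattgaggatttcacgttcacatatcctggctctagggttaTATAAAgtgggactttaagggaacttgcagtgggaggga
Tceal9: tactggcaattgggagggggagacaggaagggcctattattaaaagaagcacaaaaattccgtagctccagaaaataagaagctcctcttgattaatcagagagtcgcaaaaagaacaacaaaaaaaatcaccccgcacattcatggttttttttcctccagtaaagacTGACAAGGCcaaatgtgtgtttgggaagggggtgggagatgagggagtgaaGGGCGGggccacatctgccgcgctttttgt
S100a11: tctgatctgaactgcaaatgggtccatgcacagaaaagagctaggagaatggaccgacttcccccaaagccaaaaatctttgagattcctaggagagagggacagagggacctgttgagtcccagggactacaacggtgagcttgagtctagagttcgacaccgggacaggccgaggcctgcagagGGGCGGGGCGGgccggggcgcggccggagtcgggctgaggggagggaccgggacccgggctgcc
Epcam: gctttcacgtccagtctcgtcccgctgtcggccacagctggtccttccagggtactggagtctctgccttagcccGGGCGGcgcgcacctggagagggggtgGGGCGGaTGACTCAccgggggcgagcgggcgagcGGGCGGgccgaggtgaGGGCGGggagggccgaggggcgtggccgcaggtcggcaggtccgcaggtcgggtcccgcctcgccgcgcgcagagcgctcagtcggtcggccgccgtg
Mmp12 held an AP-1 match that began 87 bases before the start and a TATA box at 39 bases. Tceal9 held an antioxidant response core at 81 and a GC box at 30 bases, and S100a11 held overlapping GC boxes at 64 and 59 bases. Epcam held an AP-1 match at 141 bases among GC boxes at 175, 148, 114 and 98 bases. Of 33469 rat promoters of the same length, 6.3% held the AP-1 motif, 10.1% the antioxidant response core, 30.5% the GC box and 12.9% the TATA box. No motif was shared by all of the windows, and a match describes letters, not a bound site.

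The question the split was made for is whether the genes that distinguish KRT-19-positive nodules from control liver follow Krt19 among nodules labelled negative. Against control, 2868 features (24.8%) had risen and 2761 (23.9%) had fallen in KRT-19-positive nodules. Of those that had risen, 1927 (67.2%) were higher in the high Krt19 arrays, against 47.1% of all features, with a median difference of 0.112. Of those that had fallen, 1946 (70.5%) were lower, against 52.9% of all features, with a median of -0.125. The 5929 features called in neither direction had a median of -0.025, and 45.6% of them were higher. The middle of each class was thus shifted by far less than 2-fold, and the features at least 2-fold apart made up a tail on the higher side.

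That tail was made up mostly of the genes of KRT-19-positive nodules. Of the 125 features at least 2-fold higher in the high Krt19 arrays, 103 (82.4%) had risen in KRT-19-positive nodules and 4 had fallen. Of the same 125, 84 (67.2%) were lower after 4 d of T3 and 9 were higher, at background rates of 26.6% and 27.1%. Of the 20 features at least 2-fold lower, 9 had fallen in KRT-19-positive nodules and 0 had risen, and 13 were higher after T3 while 3 were lower. Among the 767 features that had risen at least 2-fold in KRT-19-positive nodules, 639 (83.3%) were higher in the high arrays, with a median of 0.379. Among the 581 that had fallen at least 2-fold, 409 (70.4%) were lower, with a median of -0.165.

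**Figure D2:**
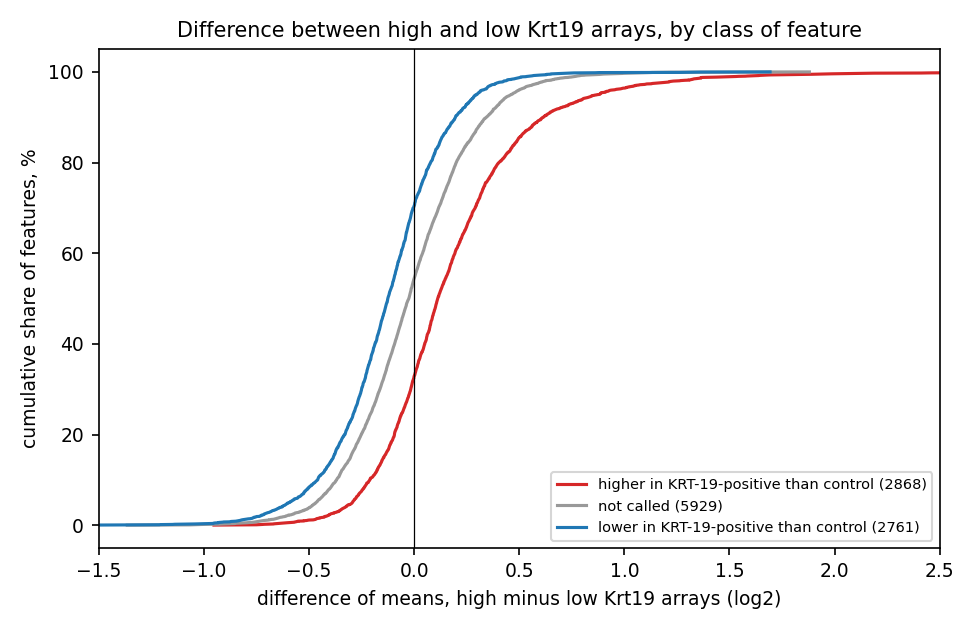
Cumulative share of features (vertical axis, percent) by their difference between the high and low Krt19 arrays (horizontal axis, log2), drawn for the 2868 features that had risen in KRT-19-positive nodules, the 2761 that had fallen and the 5929 not called. The first curve lies to the right of the grey one with a median of 0.112 and the second to the left with a median of -0.125. The axis ends before the few features with the widest differences, Krt19, Abcb1b and Defb1 among them.

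Each array was then placed between control liver (0%) and KRT-19-positive nodules (100%) by its median over the 767 risen features. The high arrays 9, 2, 5 and 4 lay at 79.1%, 67.8%, 50.7% and 45.4%, and the low arrays 10, 6, 8 and 1 at 48.1%, 32.7%, 31.4% and 27.4%. The middle array 7 lay at 40.3%, and number 3, which was not ranked, at 14.4%. The order followed Krt19 in the main, but the sides overlapped: low array 10 lay above high array 4. Over the 581 fallen features the high arrays lay at 61.9% (number 9), 59.4% (2), 46.7% (5) and 40.0% (4) and the low arrays at 46.6% (1), 39.7% (10), 36.5% (6) and 30.2% (8). Here number 1, the array with the least Krt19, stood level with number 5, so loss of the fallen genes and gain of the risen genes did not rank the arrays alike.

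**Figure D3:**
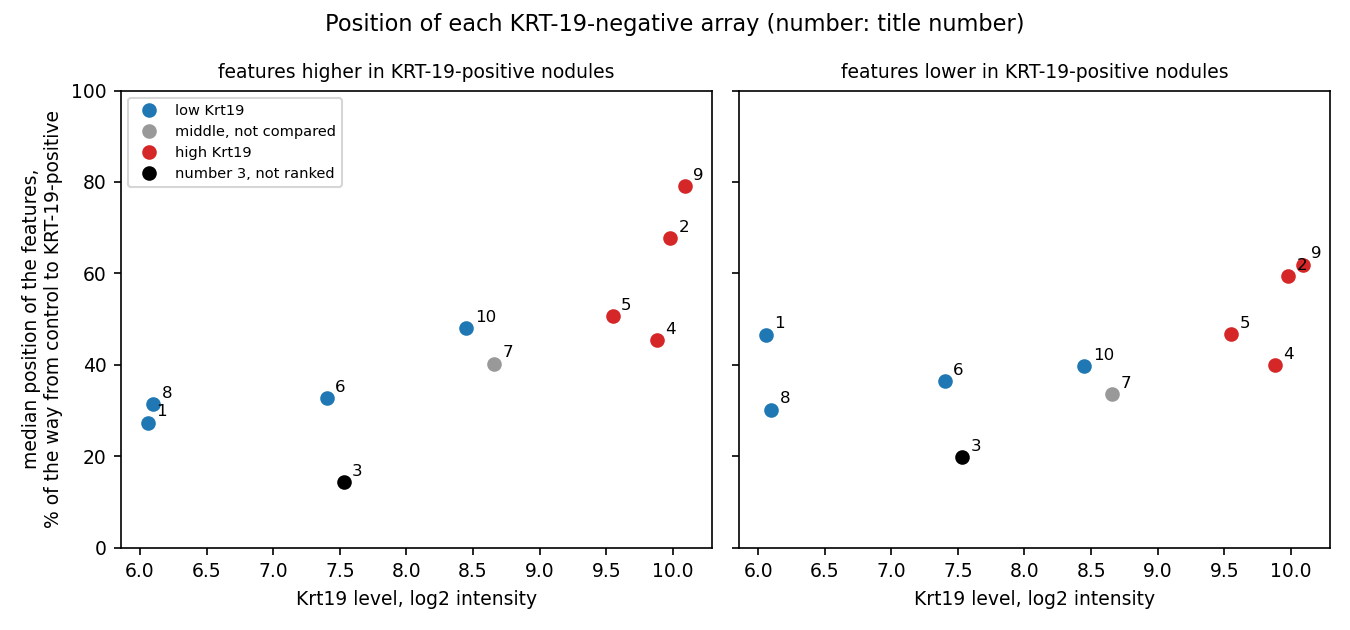
Median position of each KRT-19-negative array between control liver (0%) and KRT-19-positive nodules (100%, vertical axis) over the 767 risen features (left) and the 581 fallen features (right), against its Krt19 level (log2 intensity, horizontal axis). Points carry title numbers and are coloured by side of the split. Numbers 9 and 2 stand highest in both panels, and numbers 4 and 5 lie near low array 10 in the left one.

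Gene by gene, the low Krt19 arrays already held part of the pattern of KRT-19-positive nodules. Of the 767 risen features, 63 had reached 80% or more of the way from control in the mean of the low arrays, 449 lay between 20% and 80%, and 255 were under 20%. Of those 255, 109 had reached 50% or more in the high arrays. A few genes of glutathione conjugation and export were of the first kind. Gstp1 stood at 88.1% of the way in the low and 92.6% in the high arrays, Abcc3 (an exporter of conjugates) at 85.5% and 88.7%, and Gsta3 (a glutathione transferase) at 82.1% and 84.9%. For Gstp1 the low arrays read 14.04, 14.04, 14.18 and 14.53 and the high arrays 15.18, 14.92, 14.28 and 13.72, so that number 5, on the high side for Krt19, was the lowest of the 8. In KRT-19-positive nodules Gstp1 read up to 15.27, the same highest level as Fth1, Gstm1 and Ahsg there. Whether the top of the scale bounded Gstp1, and so raised its percentages, was not tested.

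Other leading genes of KRT-19-positive nodules stood far apart between the low and high sides. Abcb1b stood at 9.66% of the way in the low and 71.05% in the high arrays, and Ctse at -7.51% and 44.9%, that is, just below control in the low arrays. Defb1 (beta-defensin 1, an antimicrobial peptide) did not rise above background in control liver and averaged 12.94 in KRT-19-positive nodules, at least 180.1-fold higher. It read 12.20, 11.58, 9.87 and 10.90 on high arrays 9, 2, 4 and 5 and 10.22, 5.80, 5.01 and 7.41 on low arrays 10, 6, 8 and 1. The difference of 4.03 was wide, yet low array 10 again exceeded high array 4, and number 8 was not above background. Nefl (neurofilament light chain) read 8.11, 5.92, 7.98 and 7.11 on the high arrays and was above background on only 1 low array, number 10 at 6.13, which exceeded number 2. All 4 high arrays lay below the 10.49 to 13.30 of KRT-19-positive nodules.

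Between these lay Akr1b8 (an aldo-keto reductase of the rat), Car2 (carbonic anhydrase 2), Gpx2 (a glutathione peroxidase) and Pcp4 (a calmodulin-binding protein). They were 51.7% to 63.4% of the way in the low arrays and 72.8% to 82.9% in the high arrays, with differences of 1.88, 1.46, 0.84 and 0.83. Car2 did not overlap between the sides, with number 5 at 11.39 and number 1 at 11.35, and the other 3 did. The genes with the widest falls in KRT-19-positive nodules showed little of the split. Obp3, Aox3, Olr59, Avpr1a, Cyp3a9, Irs3, Dhrs7l1 and Mup4l3 differed by between -0.24 and 0.60 with overlap. Angptl4, a secreted inhibitor of lipoprotein lipase, was lower in the high arrays by -0.61, and Cdh17 (liver-intestine cadherin) was higher by 1.36, against its fall in KRT-19-positive nodules. Low array 1, at 6.06, widened this difference for Cdh17, while the other low arrays lay between 8.50 and 9.42.

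The genes furthest below in the high arrays were enzymes, transporters and regulators, with smaller differences. Sds (serine dehydratase, which feeds serine into gluconeogenesis) read 12.57, 12.97, 11.92 and 11.54 on high arrays 9, 2, 4 and 5 and 13.59, 13.58, 13.22 and 13.36 on low arrays 10, 6, 8 and 1, a difference of -1.19. Control liver averaged 11.44 ± 0.81 (n = 8) and KRT-19-positive nodules 11.33 ± 1.00 (n = 10), a difference that did not pass the threshold by limma (-0.11 ± 0.32, adjusted p = 0.804). All 4 low arrays as well as high arrays 9 and 2 lay above the highest control, at 12.49. Me3, a mitochondrial malic enzyme, was 6.52 ± 0.42 (n = 4) in the high and 7.53 ± 0.38 (n = 4) in the low arrays, between 8.09 in control and 5.56 in KRT-19-positive nodules. Slc22a8 (an organic anion transporter) was -0.96 apart and Akr1c3 (a steroid-reducing enzyme) -0.87 apart.

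Lag3, an inhibitory receptor known from lymphocytes, was 5.96 ± 0.17 (n = 4) against 7.03 ± 0.16 (n = 4), with all high arrays at or below 6.16 and all low arrays at or above 6.82. The remaining genes were Terc (the RNA of telomerase, -1.05), Slc2a5 (a fructose transporter, -1.001), Trim24 (a nuclear receptor cofactor, -0.95), Ankrd27 (an endosomal trafficking protein, -0.93), Slc10a6 (a steroid sulphate transporter, -0.91), Fn3k (fructosamine 3-kinase, -0.87) and Hoxb1 (a homeobox factor, -0.87). Trim24, Slc10a6 and Hoxb1 were above background on only 1 of the 4 high arrays each, so their differences there are close to the limit of measurement. Of these 12 genes, 7 had fallen in KRT-19-positive nodules against control (23.9% of all features): Lag3, Me3, Slc22a8, Slc10a6, Fn3k, Akr1c3 and Hoxb1. The falls of Slc10a6 (adjusted p = 0.0436) and Hoxb1 (adjusted p = 0.0490) were lost without the filter on dim probes, at adjusted p = 0.0807 and 0.0883. After T3, 7 of the 12 were higher (27.1% of all features), Slc22a8 by 1.13 ± 0.27 (adjusted p = 0.000434) and Me3 by 0.81 ± 0.19 (adjusted p = 0.000271) among them, and Slc2a5 and Ankrd27 were lower.

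Described by gene lists, the markers of progenitor cells and the cell surface lay together. All 7 measured members were higher in the high arrays, with a median of 0.843 against -0.017 over all features, and all 7 had risen in KRT-19-positive nodules (24.8% of all features) while 6 were lower after T3 (26.6%). Of the 7, Epcam alone did not overlap between the sides (2.42% of all features). Cd24, a surface glycoprotein of progenitor and tumour cells, was 9.51 ± 0.44 (n = 4) against 7.87 ± 1.09 (n = 4), although low array 1 at 8.98 reached high array 9 at 8.97. Epcam, an adhesion molecule of bile duct and progenitor cells, read 9.79, 10.30, 9.90 and 9.82 on the high arrays and 9.57, 8.89, 8.35 and 9.63 on the low arrays. Tnfrsf12a, the receptor of the cytokine TWEAK, was 1.06 apart and Cd44, a hyaluronan receptor, 0.80. The summed intensity of the whole list was 3490 to 4450 on the high arrays, 1740 to 2740 on the low arrays, 1390 to 1670 in control liver and 6350 to 10000 in KRT-19-positive nodules.

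The markers of bile duct cells were less uniform. Of 12 measured, 10 were higher and 2 lower, with a median of 0.328, and 3 did not overlap (2.42% of all features): Epcam, the annexin Anxa4 and Krt19, which defined the split. Against control, 7 had risen and 2 had fallen in KRT-19-positive nodules (24.8% and 23.9% of all features). Onecut1, a transcription factor of bile duct development that hepatocytes also express, differed by -1.55, and the anion exchanger Slc4a2 by -0.31. Onecut1 was also called between the ranges of title numbers considered further on (1.70 higher in numbers 6 to 10, adjusted p = 0.0162). Spp1 (osteopontin) and Prom1 (CD133, a progenitor surface protein) were above background on 0 of the 4 low arrays, and Muc1 (an epithelial mucin) on 1. With the low arrays taken at the limit of background, the means of the high arrays were 2.40-fold (Spp1) and 1.78-fold (Prom1) higher. On high array 9 all 3 genes were not above background either, so these folds are not lower bounds. Spp1 read 8.14, 7.19 and 6.41 on numbers 2, 4 and 5, and Prom1 read 7.03, 6.59 and 6.72. Krt20, another keratin, likewise read 6.23 on number 9 and 8.10, 7.53 and 8.17 on the other high arrays. Without Krt19, the summed intensity of the list was 5960 to 6710 on the high and 6030 to 8500 on the low arrays, which overlap. These sums weigh the brightest members most. In the low arrays that was Onecut1, at a mean of 11.69 against 10.14 in the high arrays, so they say little of the dimmer members. Krt8, a keratin of hepatocytes themselves, was 13.67 ± 0.21 against 13.35 ± 0.13 (n = 4 each), and its groups overlapped between 13.46 and 13.49.

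Genes of stellate cells and fibroblasts also stood apart. All 11 measured members were higher in the high arrays, with a median of 0.634, and Dcn (decorin, 1.33), Vim (vimentin, 0.77) and Timp1 (an inhibitor of matrix proteases, 0.66) did not overlap (2.42% of all features). In KRT-19-positive nodules 9 had risen (24.8% of all features) and Des (desmin) had fallen (23.9%). The summed intensity of the list was 7630 to 10900 on the high arrays and 4710 to 6650 on the low arrays, with control at 4350 to 6720 and KRT-19-positive nodules at 9950 to 19000. The part of this cell type in the levels of Fbln1, Mfap4, Mmp12 and the other genes above was not tested. Macrophage markers were higher for 7 of 11 members and lower for 4 (median 0.188), and their sums overlapped, at 9210 to 11800 and 8060 to 9940. Trem2, a receptor of lipid-associated macrophages, was above background on 3 high arrays and 0 low arrays, without overlap. With the low arrays taken at the limit of background its mean was 1.44-fold higher in the high arrays. That is not a lower bound, as not all high arrays were above background. Endothelial sums (1320 to 1950 against 1030 to 1670) and lymphocyte sums (460.0 to 769 against 441 to 662) overlapped as well. Among the lymphocyte genes only Cd79b (-0.43) was lower without overlap (2.84% of all features). The 5 measured red blood cell genes were all lower, with a median of -0.328 and sums of 7220 to 19800 against 13200 to 19100.

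Of the preneoplastic markers, 17 of 18 were higher in the high arrays and Afp was lower by only -0.01 (median 0.377). Igf2, counted among the higher, was above background on no array of either side. Abcb1b is on this list, and the glutathione transferases Gstm3 (0.75) and Gsta2 (0.28) were the other members without overlap (2.42% of all features). Of the targets of NRF2, the transcription factor of the antioxidant response, 18 of 20 were higher (median 0.273). The 2 lists are not separate observations, as Gpx2, Nqo1, Txnrd1, Akr7a3, Ephx1, Gsta3 and Abcc3 are on both. Slc7a11, counted among the higher targets, was above background on no array of either side. Gclm and Gclc, the 2 subunits of the enzyme that limits glutathione synthesis, were 1.01 and 0.89 apart. Gclm did not overlap, nor did Taldo1 (transaldolase, 0.46) and Prdx1 (peroxiredoxin 1, 0.28), against 2.42% of all features. All but 2 of the 20 had risen in KRT-19-positive nodules (24.8% of all features), and Gstm1 (-0.15) and Me1 (-0.19) were the members lower in the high arrays. Most cell cycle genes leaned the same way, with 21 of 26 higher and a median of 0.223. Of those counted higher, Nusap1 and Bub1b were above background on no compared array. Ccna2, Cdc6, Ccne2 and Bub1 were above it on no low array. Rrm2 (a subunit of ribonucleotide reductase, 0.86) and Ccnb2 (cyclin B2, 0.84) were widest. Only Pcna (0.36), 1 of the 26, did not overlap, against 2.42% of all features. The 5 lower members were Mcm2, Mcm3, Mcm4, Foxm1 and Ccne1, with differences of -0.07 to -0.44, and 16 of the 26 had risen in KRT-19-positive nodules (24.8% of all features). Mcm3 and Mcm4 were above background on only 1 array of each side. The signs of such dim members, higher or lower, are not settled. After 4 d of T3, 16 of the 26 were higher than in untreated KRT-19-positive nodules (27.1% of all features) and 0 were lower. In the glycolysis list 7 of 13 were higher and 6 lower. Pfkp, the phosphofructokinase isoform of platelets and many tumours, was 1.37 higher without overlap, the muscle isoform Pfkm 0.87 higher, and the liver isoform Pfkl -0.60 lower.

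Genes of the mature hepatocyte differed little. Of 34 measured, 23 were lower and 11 higher, with a median of -0.088, and their summed intensity overlapped, at 422000 to 526000 on the high and 459000 to 496000 on the low arrays. Both lay above the 262000 to 391000 of KRT-19-positive nodules, in which 25 of the 34 had fallen (23.9% of all features) and 4 had risen (24.8%). Of the 34, Ass1 (-0.24) and Fah (-0.39) were lower without overlap (2.84% of all features), and no member was higher without overlap. Alb was 14.93 ± 0.27 against 14.73 ± 0.20 (n = 4 each), and it was also lower by -0.46 in numbers 6 to 10 than in 1 to 5 (adjusted p = 0.0366). Hnf4a, a transcription factor central to hepatocyte identity, was -0.52 lower, and Nr1h4, the bile acid receptor, -0.51 lower. Of 13 periportal genes, 9 were lower (median -0.255), Sds among them, but Igfbp2, which binds insulin-like growth factors, was 1.67 higher without overlap. Of 15 thyroid hormone targets, 12 were lower (median -0.26), none without overlap (2.84% of all features). The receptor gene Thrb was 8.62 ± 0.40 against 9.26 ± 0.41 (n = 4 each). Of 22 genes of fatty acid oxidation, 15 were lower (median -0.074), with Etfb, an electron transfer subunit, at -0.72. Only Acaa1a (-0.25) was lower without overlap (2.84% of all features). Of the same lists, 11 of the 15 and 16 of the 22 had fallen in KRT-19-positive nodules (23.9% of all features).

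**Figure D4:**
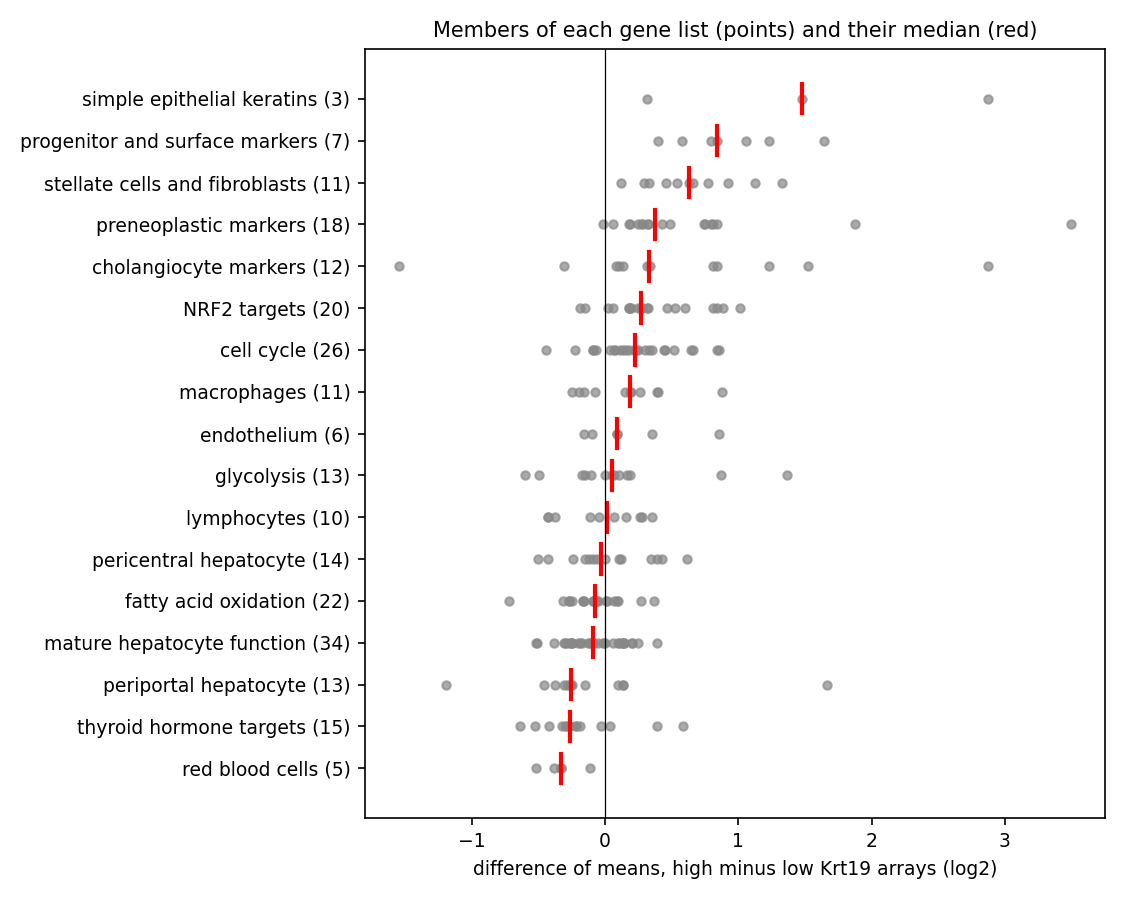
Difference between the high and low Krt19 arrays (log2, horizontal axis) for each measured member (grey points) of the gene lists with 3 or more members, with the median of each list as a red line and the number of members in brackets. Progenitor and stellate cell lists lie wholly to the right of 0, and the red blood cell list wholly to the left. The list of simple epithelial keratins has only 3 members, of which Krt19 itself defined the split.

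Title numbers were looked at as a possible batch, since 3 of the 4 high arrays carry numbers 1 to 5 and 3 of the 4 low arrays carry numbers 6 to 10. The labels do not say what the numbers stand for. Between numbers 6 to 10 and numbers 1, 2, 4 and 5, limma called 91 features higher (0.787%) and 126 lower (1.09%). That total of 217 became 64 without number 7, 78 without 6, 82 without 8, 114 without 10 and 335 without 5. None of the 23 leading genes was among the 217, and neither was any of the 280 and 328 features without overlap. Each side of the split holds arrays of both ranges, so a gene without overlap is unlikely to be called here. The absence of the leading genes was therefore not a check for a batch. Of the 125 features at least 2-fold higher in the high Krt19 arrays, 9 were called lower in numbers 6 to 10, and of the 20 at least 2-fold lower, 3 were called higher there.

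The split crosses the ranges, so its values can also be given within each. Numbers 2, 4 and 5 were set against number 1, and number 9 against numbers 6, 8 and 10, so that each comparison rests on a lone array on 1 side. The features were chosen on these same 8 arrays, which in part fixes a shared direction, so the values are a description and were not tested as a check for a batch. Of the 125 features, 107 were higher in both ranges and 64 were at least 2-fold higher in both, while over the whole table of 11558 the ranges shared a positive sign for 3397 and a negative one for 3469. Of the 20 lower features, 18 were lower in both and 4 were at least 2-fold lower in both. Krt19, which ranked the arrays, differed by 3.75 within numbers 1 to 5 and 2.77 within 6 to 10. Abcb1b differed by 5.32 and 3.73, Cyp2c12 by 3.13 and 2.95, and Ctse by 3.25 and 2.82. For Spp1 (1.77 and -0.01), Prom1 (1.86 and -0.32) and Krt20 (2.52 and 0.00) the difference lay within numbers 1 to 5, and within 6 to 10 Spp1 and Prom1 were not above background on any of the 4 arrays. Over all features risen in KRT-19-positive nodules the median difference was 0.122 within numbers 1 to 5 and 0.232 within 6 to 10, and over those fallen it was -0.061 and -0.222. Over the 767 risen at least 2-fold it was 0.353 and 0.621. Over the 581 fallen at least 2-fold it was -0.007 and -0.38. Within numbers 1 to 5 these 581 were divided nearly evenly, with 293 lower and 288 higher.

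**Figure D5:**
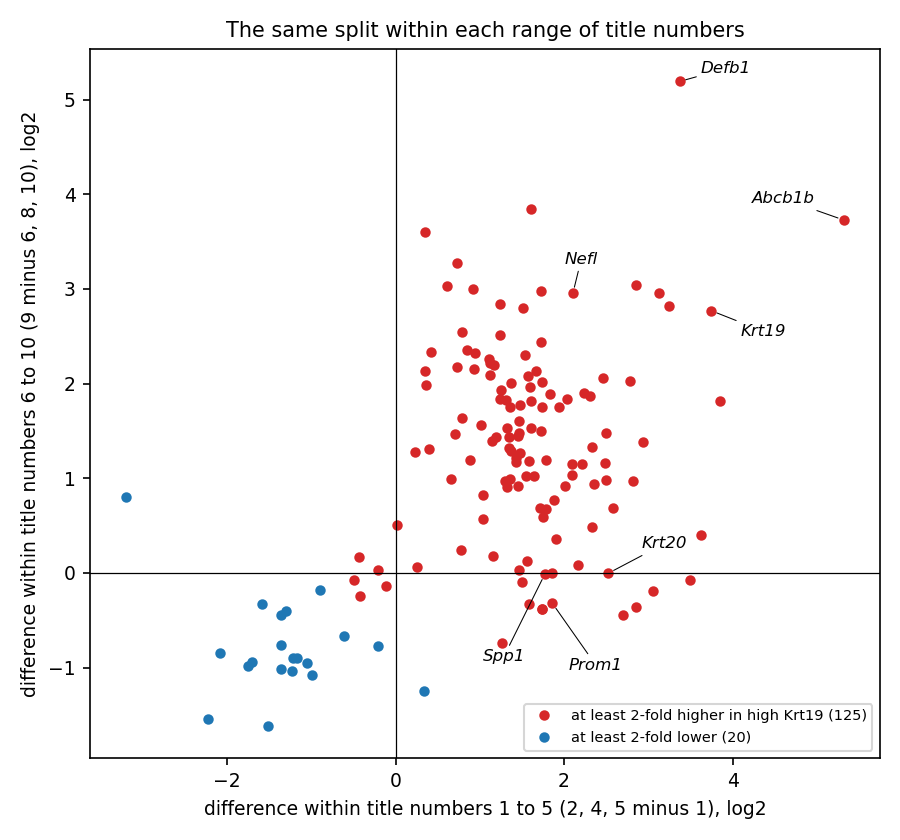
Difference between high and low Krt19 arrays (log2) within title numbers 1 to 5 (horizontal axis, numbers 2, 4 and 5 minus number 1) and within 6 to 10 (vertical axis, number 9 minus numbers 6, 8 and 10) for the 125 features at least 2-fold higher over all 8 arrays (red) and the 20 at least 2-fold lower (blue). Of the red points 107 lie above 0 on both axes, and 18 of the blue points lie below 0 on both.

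Whether the same genes vary with Krt19 among KRT-19-positive nodules was asked on the 10 untreated KRT-19-positive arrays, where Krt19 ranged from 11.03 to 12.73. With the Krt19 level as covariate, limma called 1 of 11557 features up (0.00865%) and 0 down. At an unadjusted p under 0.05 there were 615 up (5.32%) and 493 down (4.27%). The feature called was Nefl, which changed by 1.57 ± 0.19 (SE) per unit of log2 Krt19 (adjusted p = 0.0098) and ranged from 10.49 to 13.30 on these arrays with a median of 11.95. Without the 2 arrays farthest from the median of Krt19, numbers 6 and 1, the slope of Nefl was 1.70 ± 0.26, but its adjusted p was 0.32 and the fit called 0 features, with 324 up and 190 down at an unadjusted p under 0.05. None of the leading genes of the split passed in either direction: 9 of the 11 higher ones had a slope above 0, Abcb1b with 0.04 and Ctse with 0.57 (adjusted p = 0.941 and 0.373).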

How the data were processed

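Total RNA of the 48 samples was hybridised to Illumina bead arrays with 1 colour. Per the file headers, the deposited tables list for every probe an intensity before normalisation and a detection p-value, and BeadStudio 3.0.19.0 is named in the submitters' processing notes. A further deposited table gives intensities the authors had normalised between arrays, by a method not given in the sources used here. The log2 of its Krt19 probe ranked the arrays.

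The raw intensities were corrected for background with neqc (offset 16) from limma 3.58.1 (R 4.3.3), which also applies quantile normalisation and log2. A probe had to be detected (p-value under 0.05) on 8 or more arrays, and the brightest probe stood for a gene, which left 11558 features (8223 named). Precision is bounded by how many arrays each group holds.

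The split was described by means, SDs, differences and overlap. Contrasts were fitted with limma over all 48 arrays (the slope and the title numbers over their own arrays), with prior variances that follow the mean. Benjamini-Hochberg adjustment ran over all features. The procedures were tested on simulated data.

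Genes were named by rule: the 12 widest differences each way without overlap, detected on at least 4 of the 8 arrays, clone identifiers left out, the 10 widest rises and falls of KRT-19-positive nodules, up to 4 members per list, members against their list, and a fixed set of markers. List members named for not overlapping were added after their values were seen. Members and lists were chosen with earlier results of these data known. Motifs were searched in the 250 bases before each start in the RefSeq promoter table (GRCr8). Alternatives covered normalisation, filter, arrays compared, title numbers, a replicate block and arrays left out in turn.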

Additional observations from a re-analysis of the deposited data

Results flagged for a closer look

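Among the named genes, of which many were chosen on the same arrays, 96 groups of 4 to 10 arrays were examined. Of these, 6 held an array far from the others by Dixon's criterion, which chance alone gives in about 1 of 20 groups. Abcb1b read 11.35 on high array 9 and 10.03 to 10.20 on the other high arrays. Mybl1 read 10.32 on KRT-19-positive array 7, against 8.61 to 9.40 on the other 9. Mfap4 read 6.06 on low array 6 and 5.03 to 5.10 on the other low arrays. Lag3 was 6.99 on control array 6 and 7.59 to 8.09 on the other controls. Low array 1 stood out for Trim24, at 6.97 against 5.52 to 5.72, and for Akr1c3, at 10.47 against 9.77 to 9.86.

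For 8 of 59 named genes the high arrays lay wholly on opposite sides of the low arrays in the 2 ranges of title numbers, a difference that was not tested. The first value is that within numbers 1 to 5 and the second that within 6 to 10. Gsta3 differed by -0.27 and 0.92, and Abcc3 by -0.44 and 0.61. Olr59 (0.64 and -0.71), Avpr1a (0.50 and -0.74) and Dhrs7l1 (1.59 and -0.40) are genes that fell in KRT-19-positive nodules. The alpha-fetoprotein gene Afp differed by 0.29 and -0.56, Prom1 by 1.86 and -0.32 and Muc1 by 1.15 and -0.29. Neither Prom1 nor Muc1 was above background on number 9, so their second value has no settled sign.

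The KRT-19-negative arrays left out of the split carried signal above control. Krt19 was 8.66 on number 7, against 5.67 to 7.94 in control liver. Gstp1 was 14.25 on number 7 and 9.25 on number 3, against 6.93 to 8.23 in control.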

How the results depend on the processing

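Under the alternatives run, none of the summary counts and medians turned its direction, nor did any named difference against control or after T3 that had passed the threshold. For 8 named genes the sides separated wholly in opposite directions in the 2 ranges of title numbers, as given above. Genes whose signs differed with overlap are not among the 8, such as Gstp1 (-0.23 and 1.09) and Obp3 (1.90 and -0.11). The counts of features at least 2-fold higher and lower, 125 and 20, became 36 and 5 on the deposited scale, 210 and 40 with the range of title numbers as a block, 523 and 320 within numbers 1 to 5 and 240.0 and 31 within 6 to 10. With the middle array added to the high side, 6 features were lower. Without each array in turn the counts were 106 to 171 and 22 to 44. The medians of the genes risen and fallen in KRT-19-positive nodules, 0.112 and -0.125, were 0.075 to 0.149 and -0.147 to -0.1 without each array in turn, and 60.2% to 71.7% and 63.6% to 74.5% kept the direction. The median of the fallen genes was -0.213 with scaling in place of quantile normalisation, -0.061 within numbers 1 to 5 and -0.222 within 6 to 10, and that of the risen genes 0.232 within 6 to 10. The count between ranges of title numbers, 217, was 64 to 335 without each array in turn. The Krt19 slope called 0 features without the 2 farthest arrays (324 up and 190 down at an unadjusted p under 0.05). The causes were not tested.

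Arrays with equal title numbers showed little correlation, and whether they share an origin was not tested. The correlation of same-numbered arrays was over 0.1 for 1 of 8 pairs of KRT-19-positive and control arrays (-0.205 to 0.26). Between T3 4 d and KRT-19-positive arrays it was over 0.1 for 1 of 10 pairs (-0.245 to 0.273). With the replicate block, KRT-19-positive nodules had 2579 features higher and 2341 lower than control, and T3 4 d had 3242 higher and 3197 lower. In that fit Hoxb1 lost its call against control (adjusted p = 0.0879) and Mfap4 gained one after T3 (adjusted p = 0.0227). With the range of title numbers as a block Hoxb1 also missed the threshold (adjusted p = 0.0514). On the deposited scale Slc10a6 and Hoxb1 missed it (adjusted p = 0.0662 and 0.0737) and Mup4l3 passed it after T3 (adjusted p = 0.0305). With only the groups compared, Fn3k passed it after T3 (adjusted p = 0.0312).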

Other observations

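Number 7, the middle of the ranking, lay nearer to the low than to the high arrays for several leading genes, with 8.48 for Abcb1b, 6.83 for Ctse, 7.02 for Mmp12 and 8.91 for Tceal9. For Sds it read 13.73, above all 8 compared arrays, and for Lag3 7.17. It carried Spp1 (6.09) and Prom1 (5.77) above background, unlike any low array.

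Number 3, whose Gstp1 was near control, read 4.90 for Defb1 and 5.06 for Pcp4, both not above background. Its Cdh17, at 11.24, was above that of the 8 compared arrays and just under the control range of 11.57 to 12.35. Matrix and lipid genes did not follow the same order: Fbln1 read 7.96 and Lpl 9.17 on number 3, above all 4 low arrays, and Mybl1 read 7.23, also above all 4. No test was run on these single arrays.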
